A study of Gallus gallus with 6 samples.

Results

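The enzymes described here make or spend glutathione, break down heme, or remove superoxide and peroxides in the chorioallantoic membrane (CAM) of the chick embryo after wounding. They are HMOX1, GCLM, GSTO2, MGST1, GPX1, PRDX1, TXNRD1, SOD1 and CAT, taken from the array's probe sets by annotated gene symbol. Of 10 names, 9 had a probe set of their own, because GSTO1 is carried by the annotation as GSTO2. These 9 genes had 18 probe sets, among 13009 genes and 38439 probe sets on the array. All 18 were kept, and the probe set with the highest mean over the 6 arrays, called the brightest, leads for each gene.

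In Brown Leghorn embryos kept in culture for 10 days, a surgical wound that took away the epithelium was made in a patch of CAM, and a mesh was laid on it. The wound group is the granulation tissue taken 6 days later, and the control group is uninjured CAM. Both groups held 3 samples, and 3 eggs each gave a wound and a control. The wound and its control thus lay in 1 embryo, and no separate unwounded egg or sham mesh was measured on these arrays. Each sample was read on 1 Affymetrix chicken array, and the values are log2 expression levels, so that a difference of 1 is a 2-fold change. A gene was called higher or lower where limma, fitted over all probe sets, gave an adjusted p under 0.05.

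Glutathione is a small thiol peptide that cells build up to high concentrations and use as a reducing agent and as a tag for reactive compounds. Superoxide dismutases turn superoxide into hydrogen peroxide, which catalase, glutathione peroxidases and peroxiredoxins remove, and the electrons for the peroxidases come from NADPH through glutathione or thioredoxin. Heme released from damaged cells can itself drive oxidation, and heme oxygenase breaks it into biliverdin, carbon monoxide and iron, which ferritin stores. In mammals the transcription factor NRF2 turns on many genes of this system, HMOX1, GCLM and TXNRD1 among them, and wound macrophages are known to take up heme and to make superoxide.

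Uninjured and wounded CAM differed most in HMOX1, GSTO2 and MGST1 among these genes. HMOX1 rose 3.94-fold. The brightest GSTO2 and MGST1 probe sets were 3.97-fold and 2.48-fold higher in wounds but did not pass the test (limma adjusted p = 0.161 and 0.0653). The second probe set of each passed it, at 4.17-fold and 2.54-fold (limma adjusted p = 0.0455 and 0.0350). SOD1 and CAT rose by less, 1.60-fold and 1.39-fold. GCLM, GPX1 and PRDX1 had higher values in all 3 wounds than in any control but did not pass the test, and TXNRD1 was read only by dim probe sets that showed no difference. By the brightest probe set 3 of 9 genes were called higher and 0 lower, where 3.92% of all genes on the array were called higher in the same way. Bright genes were called higher more often, 21.9% of them at the level of SOD1 (11 to 16) and 16% at that of CAT (9 to 11). At the level of HMOX1 (5 to 7) the share was 4.39%. The count of 0 lower by limma was also 0 at an unadjusted p under 0.05, at which 5.93% of all genes were lower. At that threshold 8 of the 9 genes were higher, and so were 17.5% of all genes. HMOX1, MGST1 and the paper's GSTO1 (GSTO2 here) are in the paper's own list of genes raised on these same arrays. The counts of these genes and their probe sets are therefore a description only. With the replicate number as a block in the fit SOD1 alone was called. The calls of HMOX1, CAT and the second GSTO2 and MGST1 probe sets were lost. At an unadjusted p under 0.05 in that fit, limma gave 8 of the 9 genes, and 4747 of all 38439 probe sets higher.

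**Figure D1:**
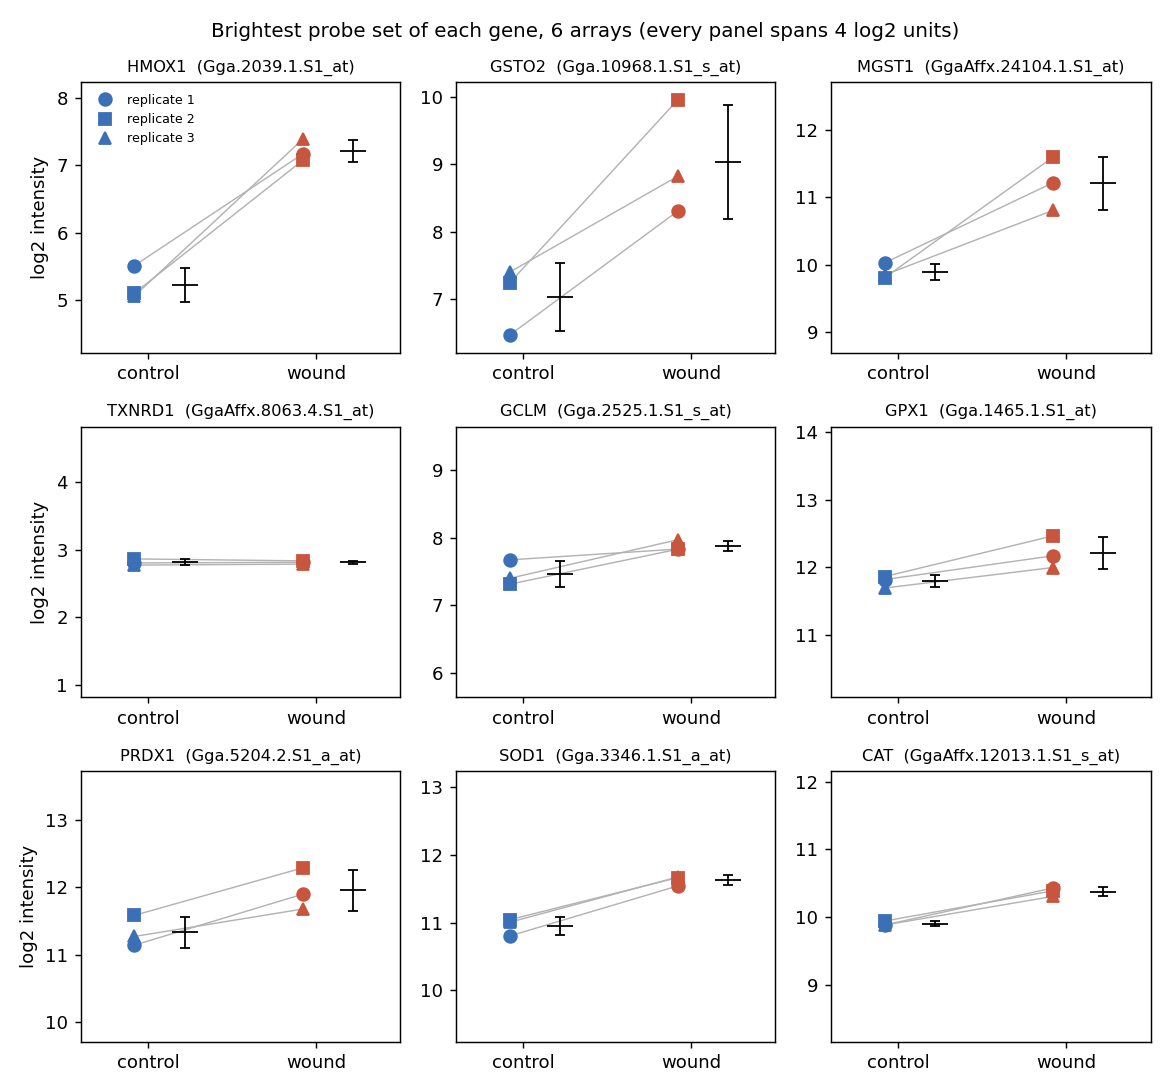
Log2 expression level of the brightest probe set of each of the 9 genes (vertical axis) in the 3 control and 3 wound samples, each sample drawn as a point, with lines joining samples of equal replicate number and crossbars for the group mean ± SD. The 3 wounds lie above the 3 controls in 8 genes, and the TXNRD1 groups overlap.

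HMOX1, the inducible heme oxygenase, had log2 levels of 5.51, 5.11 and 5.07 in controls 1 to 3 and of 7.17, 7.07 and 7.39 in wounds 1 to 3. Every wound was high and every control low, and a gap of 1.56 log2 units separated the lowest wound from the highest control. The mean was 5.23 ± 0.248 (SD, n = 3) in control CAM and 7.21 ± 0.160 (SD, n = 3) in wounds, a difference of 1.98 (SE 0.16, 95% confidence interval 1.57 to 2.38, limma adjusted p = 0.0172). HMOX1 was the 1 gene of the 9 that passed both the test and a fold change of 2 by its brightest probe set, as did 1.06% of all genes. With the replicate number as a block the adjusted p was 0.0616, which ends the call. The call was also lost without control 2 (adjusted p = 0.0693), without control 3 (adjusted p = 0.0690) and without wound 1 (adjusted p = 0.0507).

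Among 9329 genes above the median level, the HMOX1 pattern over the 6 arrays was most like those of MBP, C1QB, TMED5, YWHAQ and TIMM22. Their Pearson correlations with HMOX1 were 0.998, 0.998, 0.997, 0.996 and 0.996. The 6 arrays form a control and a wound cluster, so these values chiefly rank genes by how evenly they separate the groups, and they are given as a description. C1QB, a subunit of the complement protein C1q that macrophages make, had a mean level of 7.21 in controls and of 9.96 in wounds.

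GCLM, the modifier subunit of the ligase that starts glutathione synthesis, had log2 levels of 7.67, 7.31 and 7.40 in controls and of 7.83, 7.83 and 7.97 in wounds by its brightest probe set. The groups did not overlap, but control 1 lay within 0.157 log2 units of the lowest wound. The difference of 0.42 (SE 0.11, 95% confidence interval 0.13 to 0.70, 1.33-fold) did not pass the test (limma adjusted p = 0.164). The other GCLM probe set also separated the groups, with a difference of 0.31 (adjusted p = 0.185).

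Glutathione transferases join glutathione to reactive compounds. GSTO2 belongs to the omega class, whose mammalian members also reduce dehydroascorbate. Its brightest probe set, which ends in _s_at and so can read several transcripts, gave 6.47, 7.24 and 7.40 in controls and 8.31, 9.95 and 8.82 in wounds. All wounds were above all controls, yet the wounds spread widely, with wound 2 the highest. The difference of 1.99 (SE 0.51, 95% confidence interval 0.65 to 3.33, 3.97-fold) did not pass the test (limma adjusted p = 0.161).

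The next GSTO2 probe set gave 5.07, 4.997 and 5.41 in controls and 7.18, 7.74 and 6.74 in wounds. Wound 2 was again the highest, and the gap between the groups was 1.33. Here the difference of 2.06 (SE 0.29, 95% confidence interval 1.31 to 2.81) passed the test (limma adjusted p = 0.0455). With the replicate number as a block its adjusted p was 0.125. Leaving out 1 array ended the call for all but wound 3, with an adjusted p of 0.167, 0.160 and 0.123 without controls 1, 2 and 3 and of 0.112 and 0.0691 without wounds 1 and 2. The last GSTO2 probe set was dim and its groups overlapped (difference 0.35, adjusted p = 0.658). The array thus has 1 probe set of 3 that calls GSTO2 higher, with the brightest of them close to it in size but wider in spread.

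MGST1 is a transferase bound to the membranes of the endoplasmic reticulum and the mitochondria, where in mammals it also reduces lipid peroxides. Its brightest probe set gave 10.03, 9.81 and 9.85 in controls and 11.21, 11.59 and 10.80 in wounds. The controls lay close together, and the wounds, all higher, spread more widely (SD 0.117 and 0.394, n = 3 each). The difference of 1.31 (SE 0.22, 95% confidence interval 0.75 to 1.87, 2.48-fold) did not pass the test (limma adjusted p = 0.0653), although it did without wound 3 (adjusted p = 0.0352) and with dim probe sets left out of the fit (adjusted p = 0.0250).

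The second MGST1 probe set gave 9.67, 9.71 and 9.95 in controls and 10.99, 11.43 and 10.94 in wounds. Its groups were 0.988 log2 units apart at their nearest, and wound 2 was the highest on both probe sets. Here the difference of 1.34 (SE 0.16, 95% confidence interval 0.92 to 1.77) passed the test (limma adjusted p = 0.0350), but not with the replicate number as a block (adjusted p = 0.0965). Without controls 1, 2 and 3 its adjusted p was 0.135, 0.132 and 0.0952, and without wounds 1 and 3 it was 0.0803 and 0.0502. Both probe sets gave nearly the same difference, and they fell on either side of the threshold.

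**Figure D2:**
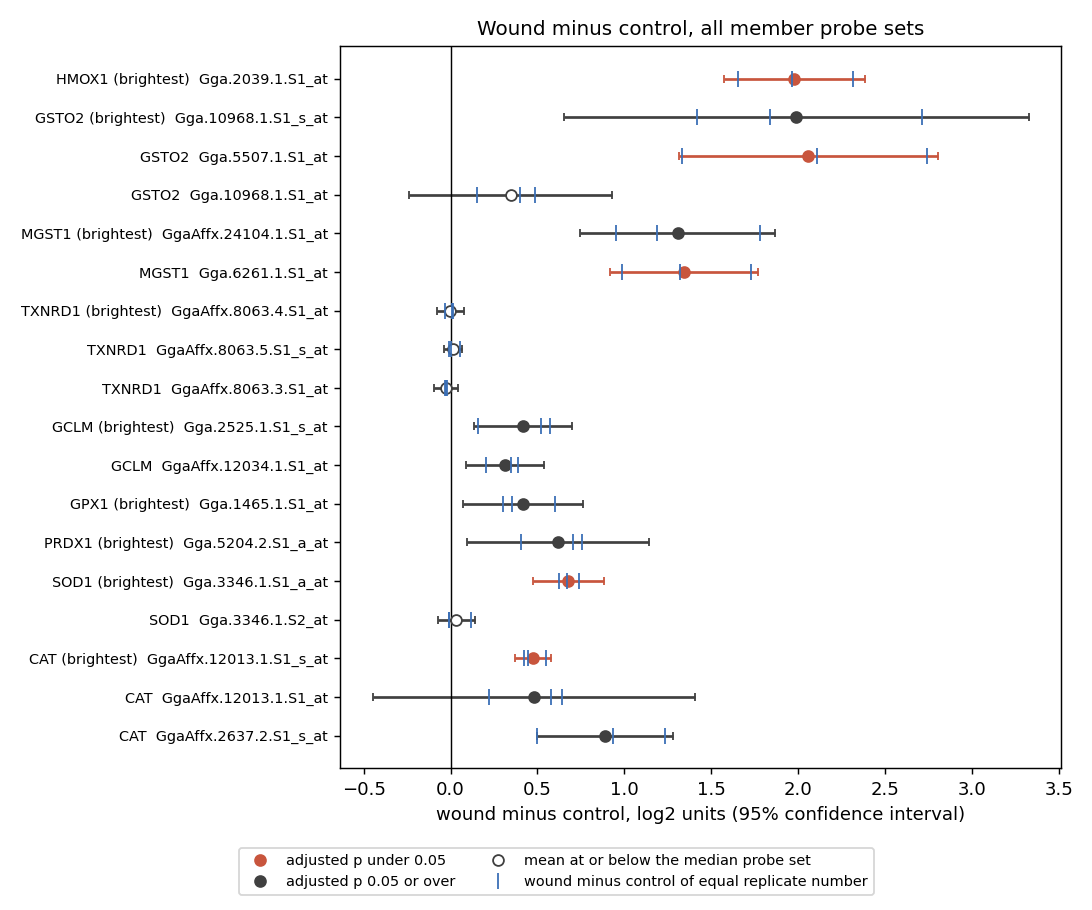
Wound minus control in log2 units (horizontal axis) for all 18 probe sets, with 95% confidence intervals from limma, filled red points for adjusted p under 0.05, open points for probe sets at or below the median level, and blue ticks for the 3 differences between samples of equal replicate number. The 5 called probe sets belong to HMOX1, GSTO2, MGST1, SOD1 and CAT, and the 5 open points lie at 0.35 or less.

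GPX1, a selenium enzyme that uses glutathione to reduce hydrogen peroxide, gave 11.82, 11.86 and 11.69 in controls and 12.17, 12.46 and 11.99 in wounds. The groups were apart by 0.134 log2 units. Its difference of 0.42 (SE 0.13, 95% confidence interval 0.07 to 0.77, 1.34-fold) did not pass the test (limma adjusted p = 0.245). PRDX1, a peroxidase recharged by thioredoxin, gave 11.14, 11.58 and 11.27 in controls and 11.90, 12.29 and 11.68 in wounds. Its lowest wound, wound 3, lay only 0.0933 above its highest control, control 2. Its difference of 0.62 (SE 0.20, 95% confidence interval 0.10 to 1.15, 1.54-fold) did not pass the test either (limma adjusted p = 0.256). In both genes sample number 2 was the highest of the controls and of the wounds.

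TXNRD1, the reductase that uses NADPH to recharge thioredoxin, had 3 probe sets, and all lay at or below the median probe set level of 3.05. The brightest gave 2.80, 2.86 and 2.77 in controls and 2.81, 2.84 and 2.79 in wounds. The groups overlapped fully, with a difference of -0.0016 (95% confidence interval -0.079 to 0.076, limma adjusted p = 0.998). The others differed by 0.016 and -0.025 (adjusted p = 0.892 and 0.848). Whether these probe sets respond to the transcript at all was not tested, so the narrow interval describes the probe sets and not the gene.

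SOD1, the copper and zinc superoxide dismutase of the cytosol, gave 10.80, 11.04 and 11.004 in controls and 11.54, 11.67 and 11.67 in wounds. All wounds were above all controls, and control 1 was the lowest sample. The mean was 10.95 ± 0.129 (SD, n = 3) in control CAM and 11.63 ± 0.074 (SD, n = 3) in wounds, a difference of 0.68 (SE 0.08, 95% confidence interval 0.47 to 0.88, limma adjusted p = 0.0328). SOD1 was the 1 gene of the 9 still called with the replicate number as a block (adjusted p = 0.0469), where 0.702% of all probe sets were called higher. Its 3 differences between samples of equal number, 0.74, 0.62 and 0.67, lay close together. The call was lost whichever array was left out, at an adjusted p of 0.0620, 0.0868 and 0.105 without controls 1, 2 and 3 and of 0.0678, 0.0999 and 0.0654 without wounds 1, 2 and 3. The second SOD1 probe set was dim and differed by 0.03 (adjusted p = 0.893).

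CAT, the catalase of peroxisomes, splits hydrogen peroxide into water and oxygen. Its brightest probe set gave 9.88, 9.94 and 9.88 in controls and 10.43, 10.39 and 10.30 in wounds. The controls were almost equal, and the wounds were all higher by a narrow margin of 0.365. The mean was 9.90 ± 0.034 (SD, n = 3) in control CAM and 10.37 ± 0.064 (SD, n = 3) in wounds, a difference of 0.47 (SE 0.04, 95% confidence interval 0.37 to 0.58, limma adjusted p = 0.0187). With the replicate number as a block the adjusted p was 0.0587. It was 0.0766, 0.0668 and 0.0791 without controls 1, 2 and 3, 0.0599 without wound 2 and 0.0698 with a variance trend and robust fit in limma, and each of these ends the call.

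The other CAT probe sets gave a looser picture. One gave 9.01, 8.22 and 9.28 in controls and 9.59, 8.86 and 9.50 in wounds. Number 2 was the lowest sample of both groups there, so that the groups overlapped, while each wound was above the control of its own number by 0.58, 0.64 and 0.22. The dimmest of the 3 gave 6.88, 7.05 and 7.12 in controls and 8.11, 7.98 and 7.61 in wounds, a difference of 0.89 (1.85-fold, limma adjusted p = 0.0694).

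Over all 18 probe sets, 5 were called higher and 0 lower, where 2.04% of all probe sets were called higher and 0.304% lower. In 12 probe sets, and in the brightest of 8 genes, the 3 wounds lay above the 3 controls without overlap. In no probe set did they lie wholly below. By the brightest probe set this was so in 0 of the 9 genes, beside 7.81% of all genes. Such separation was common on these arrays. It was seen upward in 20.8% of all genes by the brightest probe set, and in 26.9% of those above the median level, of which 5.42% were called higher. The share was higher still from 7 to 9, the range of GCLM and GSTO2, at 37.3%. It was 55.6% from 9 to 11, the range of MGST1 and CAT, and 63.9% from 11 to 16, the range of GPX1, PRDX1 and SOD1. At the level of HMOX1 (5 to 7) it was 24.3%. An exact permutation test of 3 against 3 cannot go below 0.1, so none was used for single genes. The median difference of the 9 genes was 0.62, beside 0.0089 over all genes and 0.10 over the 9337 genes above the median level. No 1 wound was highest throughout: among the 8 genes above the median level wound 2 was the highest wound in 4, wound 3 in 3 and wound 1 in 1.

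The brighter a gene was, the more often its wounds lay above its controls, and most of these enzymes are bright. The 95th percentile of an array was 8.15 to 8.20 in controls and 8.34 to 8.45 in wounds, while the medians ran from 3.01 to 3.05 over all arrays. Among 219 genes with a level from 11 to 16, the median difference was 0.29, with an upper quartile of 0.47, and 21.9% were called higher. SOD1 and PRDX1 exceeded that median by 0.39 and 0.33. GPX1 exceeded it by 0.13 and lay below the upper quartile. Among 651 genes from 9 to 11 the median was 0.38, the upper quartile 0.60, and 16% were called higher. CAT exceeded that median by 0.090 and lay below the upper quartile, whereas MGST1 exceeded it by 0.92. From 7 to 9 the median was 0.21 and the upper quartile 0.46. GCLM exceeded that median by 0.20 and lay below the upper quartile, whereas GSTO2 exceeded the median by 1.78. HMOX1 exceeded by 1.87 the median of 0.11 among genes from 5 to 7.

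**Figure D3:**
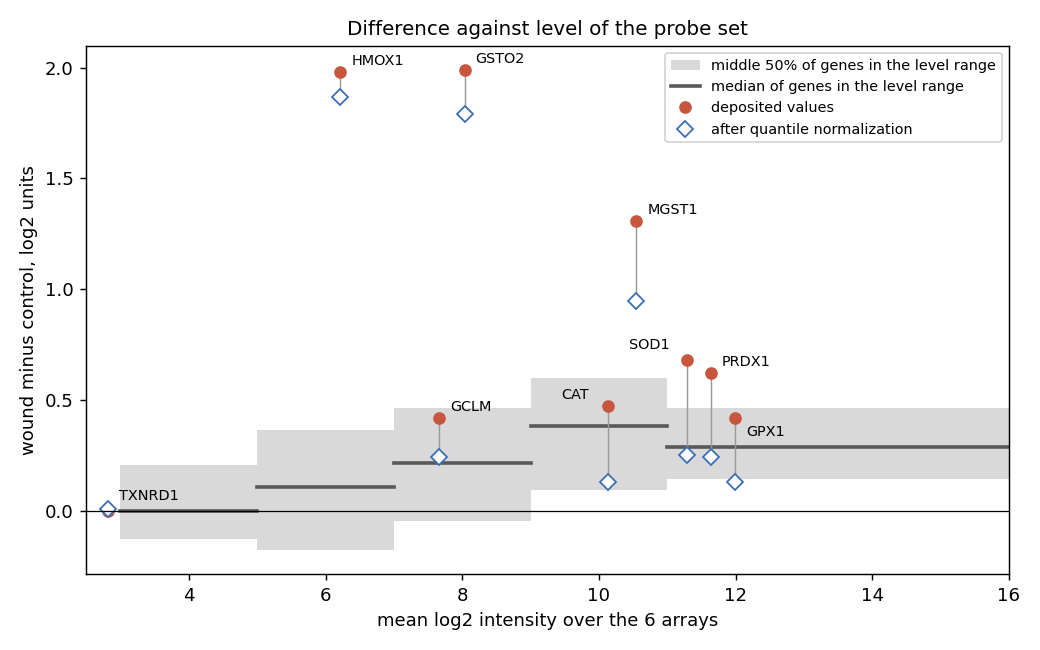
Wound minus control in log2 units (vertical axis) against the mean log2 level over the 6 arrays (horizontal axis) for the brightest probe set of the 9 genes, in the deposited values (red) and after quantile normalization (blue diamonds), over the median (dark line) and the middle 50% (grey) of all genes in each level range. The line and the grey band are of the deposited values only, with a median of 0.11 at levels 5 to 7 and 0.38 at 9 to 11. After quantile normalization these medians are 0.014 and 0.039 (not drawn), so the diamonds are not to be read against the line. HMOX1, GSTO2 and MGST1 have the largest differences among the 9 before and after quantile normalization.

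Quantile normalization, which gives all arrays 1 distribution of values, took that shift out of the deposited values. The median difference was then 0.039 among genes from 9 to 11 and 0.0031 among genes from 11 to 16. HMOX1 then still differed by 1.87 and was still called (limma adjusted p = 0.0395), and the other 8 genes were not. GSTO2 and MGST1 kept differences of 1.79 and 0.94 (adjusted p = 0.230 and 0.200). SOD1 differed by 0.25 and CAT by 0.13 (adjusted p = 0.174 and 0.398), and both lost the call. GCLM, GPX1 and PRDX1 differed by 0.24, 0.13 and 0.24 with overlapping groups, and 5 of the 9 genes still had wounds wholly above controls, beside 14.5% of all genes after the same normalization. The calls of the second GSTO2 and MGST1 probe sets were lost too (adjusted p = 0.0884 and 0.116).

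The genes around these enzymes were read from 7 lists, each gene by its brightest probe set. Over all genes on the array, limma called 3.92% higher in this way. At an unadjusted p under 0.05, 17.5% of all genes were higher and 5.93% lower. Several called genes of the lists, such as PGD, TALDO1, CYBB and NCF4, are in the paper's own list of genes raised on these same arrays. The counts of the lists are therefore a description only. For glutathione synthesis and turnover, 15 of 18 genes were measured and limma called 0 higher and 0 lower, with 4 higher and 1 lower at an unadjusted p under 0.05. The median difference was 0.28. Its brightest members were GSR, the reductase that regenerates glutathione, with a difference of 0.52 (adjusted p = 0.347), and CTH, which supplies cysteine, with 0.32 (adjusted p = 0.838). The lists on the peroxidases and on superoxide and metals gave the same count of calls. Among 22 of 26 peroxidases, thioredoxins and glutaredoxins limma called 0, with 7 higher and 1 lower at an unadjusted p under 0.05 and a median of 0.22. TXN, the thioredoxin that recharges peroxiredoxins, differed by 0.65 (adjusted p = 0.308), and GPX4, which reduces lipid peroxides, by 0.84 (adjusted p = 0.210). Among 8 of 11 genes for superoxide, quinones and metals limma called 0, with 4 higher and 0 lower at an unadjusted p under 0.05 and a median of 0.31. SOD2, the mitochondrial dismutase, differed by 0.57 (adjusted p = 0.115), and the copper chaperone ATOX1 by 0.46 (adjusted p = 0.239). With the replicate number as a block 1 gene of that list was called, the metallothionein MT3 (adjusted p = 0.0417, difference 1.45), which is named after its value was seen.

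Of 16 of 21 glutathione transferases and glyoxalase genes, 1 rose and 0 fell, beside 3.92% of all genes called higher, with a median of 0.14. The gene that rose was GSTA3, an alpha-class transferase, from 8.27 ± 0.098 (SD, n = 3) to 9.95 ± 0.223 (SD, n = 3). That is a difference of 1.69 (SE 0.13, limma adjusted p = 0.0163), and with the replicate number as a block its adjusted p was 0.0631. The call was lost without controls 1, 2 and 3 (adjusted p = 0.0685, 0.0667 and 0.0737) and without wound 2 (adjusted p = 0.0525), and after quantile normalization (adjusted p = 0.0521). The brightest uncalled genes of the list were GSTT1L, with a difference of 0.69 (adjusted p = 0.515), and MGST3, with 0.11 (adjusted p = 0.987).

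Among 20 of 25 genes of heme synthesis, heme breakdown and iron, 1 rose and 0 fell, beside 3.92% of all genes called higher. The median of the list was -0.03. FTH1, the ferritin heavy chain that stores the iron released from heme, went from 13.91 to 14.39, a difference of 0.48 (SE 0.06, limma adjusted p = 0.0340). Among genes at its level, from 11 to 16, the upper quartile of the difference was 0.47 and 21.9% were called higher. FTH1 was still called with the replicate number as a block (adjusted p = 0.0440). The call was lost without controls 1, 2 and 3 (adjusted p = 0.119, 0.102 and 0.121) and without wounds 2 and 3 (adjusted p = 0.0789 and 0.0698), and with a variance trend and robust fit (adjusted p = 0.0523). TFRC, the receptor that brings in iron, differed by -0.46 (adjusted p = 0.728), and CPOX, an enzyme of heme synthesis, by -0.07 (adjusted p = 0.998).

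Of 18 of 22 genes of the NRF2 system and the NADPH supply, 3 rose and 0 fell, beside 3.92% of all genes called higher. The median of the list was 0.46. PGD, which makes NADPH in the oxidative branch of the pentose phosphate pathway, and TALDO1, a transaldolase of its other branch, differed by 1.33 and 1.15 (limma adjusted p = 0.0348 and 0.0236), and NNT, the mitochondrial transhydrogenase, by 0.56 (limma adjusted p = 0.00926). With the replicate number as a block the adjusted p was 0.0688 for PGD, 0.0820 for TALDO1 and 0.0523 for NNT, and no gene of the list was called. Leaving out 1 array ended the PGD call for all but wound 3 (adjusted p from 0.0740 to 0.127). It ended the TALDO1 call without controls 1 and 2 and wounds 1 and 2 (0.0703 to 0.0873), and the NNT call without controls 2 and 3 (0.0511 and 0.0515). Quantile normalization ended all 3 calls (adjusted p = 0.118 for PGD, 0.115 for TALDO1 and 0.0802 for NNT), and a variance trend with robust fitting ended that of NNT (adjusted p = 0.0600). The transcription factors NFE2L2, which encodes NRF2, and NFE2L1 differed by 0.60 and 0.06 (adjusted p = 0.549 and 0.955).

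The phagocyte oxidase makes superoxide in white blood cells, and 4 of its 6 listed genes were measured. Of these 2 rose and 0 fell, beside 3.92% of all genes called higher. CYBB, its catalytic subunit, differed by 3.29 and NCF4, a cytosolic subunit, by 1.87 (limma adjusted p = 0.0225 and 0.0147). In the blocked fit their adjusted p was 0.0741 and 0.0599. The CYBB call was lost without control 1, 2 or 3 (0.0816, 0.0895 and 0.0871) and the NCF4 call without control 3 (0.0669). RAC2 differed by 1.05 (adjusted p = 0.0568) and CYBA by 0.15 (adjusted p = 0.610). RAC2, not called here, is in the paper's own list of raised genes.

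**Figure D4:**
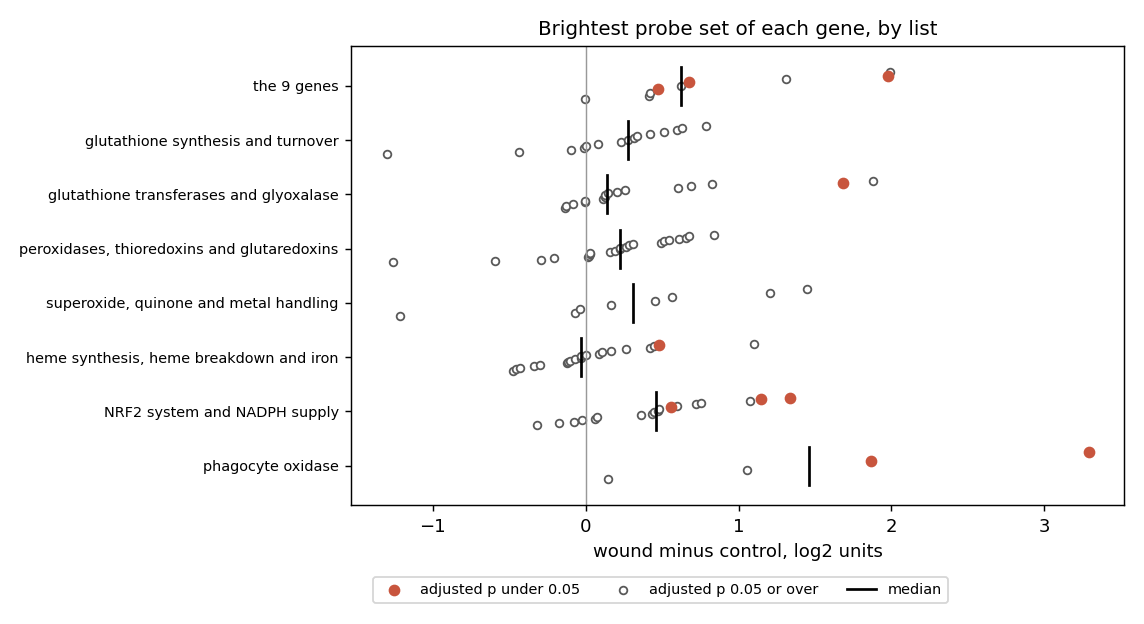
Wound minus control in log2 units (horizontal axis) for the brightest probe set of each gene in the 9 described here and in 7 surrounding lists, with red points for adjusted p under 0.05 and a line at each median. The median is 0.62 for the 9 genes, 1.46 for the phagocyte oxidase and -0.03 for heme and iron.

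Markers of the cells in the tissue moved with the same contrast. Of 16 myeloid markers 11 were called higher, beside 3.92% of all genes. Most of the 16 are in the paper's own list of genes raised on these same arrays, so their count is a description only. The mean log2 level of the myeloid list ran from 5.64 to 6.11 in controls and from 7.75 to 8.06 in wounds. Of 10 measured epithelial markers 3 were called higher, again beside 3.92% of all genes, at list means of 7.94 to 8.55 and 9.27 to 9.64. The largest differences of that list were those of KRT75 (5.98, limma adjusted p = 0.0153) and KRT5 (3.24, limma adjusted p = 0.506). Its median difference was 0.60. KRT75 is in the paper's own list of raised genes, so this count too is a description only. Of 13 endothelial markers 1 was called lower, beside 0.304% of all probe sets, at list means of 7.79 to 7.86 and 6.75 to 7.32. Of 14 fibroblast and smooth muscle markers limma called 0, with 1 higher and 3 lower at an unadjusted p under 0.05. The list means ran from 8.76 to 8.92 in controls and were 7.80, 7.51 and 9.02 in wounds 1 to 3. Wounds 1 and 2 thus lay below every control and wound 3 above every control. Of 12 red cell markers limma called 0, with 0 higher and 1 lower at an unadjusted p under 0.05, and number 2 had the highest list mean of both groups (10.25 and 10.48), as it had for GPX1 and PRDX1. In the blocked fit 1 myeloid marker, 1 epithelial marker and 0 endothelial markers were called, beside 0.702% of all probe sets called higher. Without the block limma gave 10 endothelial markers lower at an unadjusted p under 0.05, beside 5.93% of all genes. The part of these cell types in the levels of the 9 enzymes was not tested, and in whole tissue more cells of a type and more RNA per cell cannot be told apart. In uninjured CAM the highest epithelial markers were EPCAM and KRT7, at 12.30 and 11.98. CDH5 and PECAM1 were the highest of endothelium, at 10.59 and 10.32, and the globin HBA1 the highest of red cells, at 14.83. Other markers of these lists read much lower there by their means, such as KRT5 at 4.01, FLT1 at 4.40 and HBZ at 5.64. KRT5 was uneven, at 6.87, 2.81 and 2.35 in controls 1 to 3, and HBZ gave 4.81, 6.96 and 5.15.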

How the data were processed

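RNA of wound and control CAM from 3 eggs was hybridised to 6 Affymetrix chicken arrays. The values the authors deposited are log2 expression levels of probe sets, made by RMA according to the study's text and the submitters' processing notes (version not given in the sources used here). Scaling in GCOS, also mentioned in the methods, yields linear signals, whereas the values here run from 1.16 to 15.1. Of 38535 rows, 96 control rows were left out. The platform annotation gave 27168 probe sets 1 gene symbol, 177 several and 11094 none, and only the first were named. All 9 gene IDs were found in the RefSeq gene table (GRCg7b, used for names only), where GSTO1 is a synonym of GSTO2. All per-sample columns were used (0 left out). Arrays carry no counts, so their number limits the precision.

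Wound and control were compared, two-sided and unpaired, with limma 3.58.1 in R 4.3.3 (lmFit, eBayes) and Benjamini-Hochberg adjustment over 38439 probe sets. The methods name two-class SAM, which was not run here. The fit was tested on simulated data for this contrast over 38439 probe sets. It recovered 47 of 67 changes of log2 size 1, 55 of 67 of size 2 and 60 of 66 of size 3, with 15 false among 177 calls. The simulated noise was independent between arrays, without pairs and without the shift among bright genes. These rates therefore need not hold for the arrays themselves. Each wound had its control from the same egg, but the sources used here do not tie equal numbers to 1 egg. The deviations of the arrays from their group means correlated between equal numbers at 0.58, 0.63 and 0.45, each over 0.1. Equal numbers may therefore mark pairs. Between unequal numbers the correlations ran from -0.45 to -0.12. Deviations from a group mean cancel out within the group, so these negative values largely follow from the positive ones and are no separate support. The main fit did not use the numbers, so its calls, SEs and intervals are unpaired. The fit with the number as a block is given beside it where it changes a call. Other alternatives were quantile normalization, median centring, a filter on dim probe sets, a variance trend with robust fitting, other thresholds and probe sets, and leaving out each array. The text names every member with all its probe sets, and from each list the called genes (up to 4) and the 2 brightest that were not called. It also names the 5 genes most like HMOX1. The members and lists were chosen with earlier results of these data known. Figures were drawn with matplotlib 3.10.9 and pandas 2.3.3 in Python 3.11.15.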

Additional observations from a re-analysis of the deposited data

How the results depend on the processing

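After quantile normalization the differences of the 8 genes above the median level stayed above 0, and, since their deposited groups do not overlap, leaving out 1 array could not turn a direction. The calls depended on the settings. With the replicate block 270 probe sets were called higher and 45 lower, beside 785 and 117 without it, and 1 of the 9 genes (1 of the 18 probe sets) was called in place of 3 (5). It ended no call of these 9 genes and 7 lists beyond those given with their values above. Quantile normalization called 121 higher and 56 lower, 1 gene and 1 probe set, with 5 genes in place of 8 whose groups did not overlap. A fold change over 2 left 208 and 50, 1 gene and 3 probe sets. A filter on dim probe sets called 1423 and 365 and an adjusted p under 0.10 called 1570 and 340, with 4 genes and 7 probe sets under both. A variance trend with robust fitting called 374 higher. Leaving out 1 array gave 22 to 790 higher, 10 to 421 lower, 0 to 3 of the genes and 0 to 5 of the 18 probe sets. The genes at 0 were without control 2 and without control 3, where limma gave 7 and 6 higher at an unadjusted p under 0.05. The shift among bright genes was lost under quantile normalization, but the causes of these changes in the calls were not tested. In simulated data with 3 arrays a group 47 of 67 changes of log2 size 1 were recovered, and smaller ones, such as those of GCLM and GPX1, were not simulated.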

Other observations

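Some genes of the surrounding lists, chosen here after their values were seen, went the other way. All 3 wounds lay below all 3 controls in ANPEP, an aminopeptidase that acts on breakdown products of glutathione (difference -1.30, limma adjusted p = 0.185), in GPX3, the secreted glutathione peroxidase (-0.59, adjusted p = 0.458), in MSRB3, a methionine sulfoxide reductase (-1.26, adjusted p = 0.338), and in IDH2, a mitochondrial source of NADPH (-0.31, adjusted p = 0.334). None of these passed the test, and 7.81% of all genes separated downward in this way. SOD3, the dismutase outside cells, differed by -1.22 with overlapping groups (adjusted p = 0.530), beside the rise of SOD1.

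On the other side, the metallothionein MT4, which binds zinc and copper, differed by 1.204 (limma adjusted p = 0.124), with controls at 8.96, 8.70 and 9.15 and wounds at 10.36, 9.60 and 10.46. HPGDS, the prostaglandin D synthase of the transferase family, differed by 1.88 (adjusted p = 0.0713), and FLVCR2, a membrane transporter, by 1.10 (adjusted p = 0.0920). Their groups did not overlap. FLVCR2 is in the paper's own list of genes raised on these same arrays, and so is HPGDS, as PGDS and by another probe set.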
